A study of Mus musculus with 14 samples.

Results

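Interferon-induced genes are switched on in cells that sense interferon, the secreted signal of antiviral and antitumour immunity. A list of 38 mouse interferon-induced genes was followed across 14 thymic lymphomas, and a listed gene counted as measured where a probe set of the array names that gene and no other. This held for 34 of the 38 genes out of 10254 genes measured by the same rule, and where a gene had several such probe sets, the one with the highest mean over the 14 tumours was used. The 34 comprise 24 of 28 listed genes of the type I interferon response, all 6 listed GTPases induced by interferon-gamma, and 4 other genes induced by interferon-gamma, namely the transcription factors Irf1 and Irf8 and the chemokines Cxcl9 and Cxcl10. The other 4, Isg15, Ifi44, Ddx58 and Xaf1, were not analysed here, and Isg15 is represented only by a probe set that also names other genes.

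Each lymphoma came from a different mouse and was measured on 1 Affymetrix expression array. The 3 genotypes were HIF1a+/- with 5 tumours, HIF1aKI/+ with 4 tumours, numbered 1, 3, 4 and 5 in the labels, and HIF1a+/+ with 5 tumours. All the mice, the HIF1a+/+ controls included, were also p53R270H/R270H, that is, they carried a point mutant of the tumour suppressor p53 on both alleles, and all were of the mixed (C57BL/6-129/SvEvTac) strain. They were kept until breathing became difficult, so the tumours were not taken at one set age, and the labels give no age or sex. The labels do not say what the KI allele of Hif1a carries. Hif1a encodes the oxygen-regulated subunit of hypoxia-inducible factor 1, and its own probe set stood at a log2 value of 12.55 ± 0.22 in HIF1a+/- tumours, 12.02 ± 0.22 in HIF1aKI/+ tumours and 12.68 ± 0.26 in HIF1a+/+ tumours (SD, n = 5, 4 and 5).

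Type I interferons act through the receptor subunits Ifnar1 and Ifnar2 and the kinases Jak1 and Tyk2, and drive a complex holding Stat2 and Irf9 that binds the interferon-stimulated response element (ISRE) of target promoters. Interferon-gamma acts through Ifngr1, Ifngr2, Jak1 and Jak2, and drives binding at the gamma-activated sequence (GAS), after which the induced Irf1 acts on promoters of its own. The products range from RNA sensors and RNA-degrading enzymes to the immunity-related and guanylate-binding GTPases that attack vacuoles holding intracellular parasites. In the thymus interferons are made locally in small amounts, and many of these genes have a basal level in thymocytes and in thymic stromal cells.

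Promoter sequence is shown for 3 members, Igtp, Irf1 and Bst2. They had the smallest unadjusted p in the genotype comparisons among the members whose RefSeq window holds a core of these response elements within the 150 bases before its start site, and they are shown because these are the letters through which the 2 interferon pathways are known to act. Windows ran from 250 bases before to 50 bases after each annotated start (RefSeq, GRCm38.p6), and both strands were searched for GAAANNGAAA as an ISRE core and for TTCNNNGAA as a GAS core. Each line below is the 150 bases before the start, 5′ to 3′ on the strand of the gene, with the cores in capitals. Igtp (chr11:58199406-58199555, plus strand) has a GAS core 45 to 37 bases and an ISRE core 34 to 25 bases before its start. Irf1 (chr11:53769864-53770013, plus strand) has a GAS core 90 to 82 bases before it and no ISRE core. Bst2 (chr8:71537473-71537622, minus strand) has a GAS core at 136 to 128 bases that overlaps the first of 2 overlapping ISRE cores at 130 to 121 and 124 to 115 bases.
Igtp: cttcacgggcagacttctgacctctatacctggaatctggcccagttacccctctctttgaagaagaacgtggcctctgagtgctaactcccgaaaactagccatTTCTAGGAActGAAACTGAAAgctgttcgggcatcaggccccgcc
Irf1: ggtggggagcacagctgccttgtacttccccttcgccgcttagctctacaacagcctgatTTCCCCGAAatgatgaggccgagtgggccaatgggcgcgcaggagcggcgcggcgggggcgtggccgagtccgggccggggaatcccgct
Bst2: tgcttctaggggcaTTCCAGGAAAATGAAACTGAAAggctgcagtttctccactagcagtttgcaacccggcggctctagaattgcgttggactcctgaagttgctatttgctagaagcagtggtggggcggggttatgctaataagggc
In these windows 28 of the 34 members had at least 1 entry, and 20 of the 28 held at least 1 of the cores. The ISRE core was in 13 of 37 windows of members (35.1%) and in 3.4% of all 32851 windows in the table, and the GAS core was in 11 of 37 windows of members (29.7%) and in 8.3% of all windows. By class, an ISRE core was found for 8 of 19 type I members, 4 of 5 GTPases and 1 of 4 other gamma-induced members. A GAS core was found for 8 of 19 type I members, 1 of 5 GTPases and 2 of 4 other gamma-induced members. Bst2 had the single window of the 37 in which an ISRE and a GAS core overlap, against 24 of all windows. The Adar and Ifi35 windows hold a GAS core after the start, and the windows of Irf7 and Irf9 hold neither core. A match describes letters only, and a window without one says nothing about binding elsewhere.

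The values are log2 summaries of probe sets, so a difference of 1 is a doubling, and probe sets without signal above background form a separate low mode that ends at about 4.4. A group mean under that boundary stands for background, and a difference measured from it has an uncertain size. Of the 34 members, 28 had a mean above the boundary, and the other 6 were Irf7, Oasl1, Oas2, Dhx58, Adar and Cxcl9. Among the 28, tumour-wide means ran from 4.45 for Stat2 to 12.35 for the GTPase Igtp, and values of different probe sets are not comparable as amounts of RNA. Oas2, an oligoadenylate synthetase, and Adar, an RNA-editing enzyme, were below the boundary in 14 of 14 tumours. Oasl1, a relative of the oligoadenylate synthetases, was above it in only HIF1a+/- tumour 1 at 5.55 and HIF1a+/+ tumour 1 at 5.42, and the RNA sensor Dhx58 in only HIF1aKI/+ tumour 4 at 5.79.

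No interferon-induced gene passed an adjusted p of 0.05 in any comparison of genotypes. The test was limma with 1 mean per genotype over all 14 arrays and Benjamini-Hochberg adjustment over 10254 genes. Of those genes, 0.0195% passed (2 genes) between HIF1a+/- and HIF1a+/+ tumours, 0.0% between HIF1aKI/+ and HIF1a+/+ tumours and 0.0% between HIF1a+/- and HIF1aKI/+ tumours. The directions of the members are therefore given as descriptions, and both altered genotypes are set against the same 5 HIF1a+/+ tumours, so their 2 sets of differences are not independent.

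Between HIF1a+/- and HIF1a+/+ tumours, 32 of 34 members had a higher mean in HIF1a+/- tumours, against 46.2% of all genes. The 32 include Oasl1, Oas2, Dhx58 and Adar, which had both means at background, where a direction is uncertain. The 2 members with a lower mean were the RNA sensor Ifih1 (-0.14) and the nucleotide phosphohydrolase Samhd1 (-0.01). At an unadjusted p under 0.05, 5 members were higher (Igtp, Irf1, Irf9, Mx1 and Irf7) where 4.3% of all genes were, and 0 were lower where 3.64% of all genes were. In 1 member, Irf1, the HIF1a+/- and HIF1a+/+ tumours did not overlap and the HIF1a+/- tumours were higher, which was so for 0.731% of all genes. The median log2 difference was 0.44 over the 34 members, 0.41 over the type I members, 0.35 over the GTPases and 0.77 over the other gamma-induced members, and over all genes it rounds to 0. The classes are not matched for level, since 5 type I members, 0 GTPases and 1 other gamma-induced member had a mean below the boundary. With a filter on level the type I median was 0.7. Without HIF1a+/+ tumour 4 the median of all members was 0.26. The median of the GTPases ran between 0.1 without HIF1a+/- tumour 4 and 0.64 without HIF1a+/- tumour 5, and was 0.58 without HIF1a+/+ tumour 2.

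Between HIF1aKI/+ and HIF1a+/+ tumours, 30 of 34 members had a higher mean in HIF1aKI/+ tumours, against 47.7% of all genes. The 4 with a lower mean were Oasl1 (-0.66, both means at background), Samhd1 (-0.31), Rsad2 (-0.01) and Adar (both means at background), all type I members. Irf7, Oas2 and Dhx58, counted as higher, also had both means at background. Igtp was the 1 member higher at an unadjusted p under 0.05, where 2.72% of all genes were, and 0 members were lower, where 1.63% of all genes were. No member was higher without overlap of the groups, which was so for 0.878% of all genes. The median log2 difference was 0.69 over all members, 0.39 over the type I members, 0.76 over the GTPases and 1.1 over the other gamma-induced members. The type I class again includes 5 members with a mean below the boundary and the GTPases 0. In other settings on all 14 tumours the type I median reached 0.56. Without HIF1aKI/+ tumour 4 the medians were 0.38 over all members and 0.15 over the type I members. The type I median was 0.22 without HIF1a+/+ tumour 2 and 0.6 without HIF1aKI/+ tumour 3.

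Between HIF1a+/- and HIF1aKI/+ tumours, 16 of 34 members had a higher mean in HIF1a+/- tumours, against 46.9% of all genes. By class, these were 15 of 24 type I members, 0 of 6 GTPases and 1 of 4 other gamma-induced members. The 15 include Oasl1, Oas2 and Adar, with both means at background. The type I member Mx1 was the 1 member higher at an unadjusted p under 0.05, where 1.41% of all genes were, and 0 members were lower, where 1.65% of all genes were. None was higher without overlap, which was so for 0.234% of all genes. The median log2 difference was 0.24 over the type I members and -0.27 over the GTPases. Here too only the type I class of these includes members with a mean below the boundary. Leaving out 1 tumour moved the type I median between -0.02 (without HIF1aKI/+ tumour 3) and 0.42 (without HIF1aKI/+ tumour 4), with 0.03 without HIF1aKI/+ tumour 5, 0.12 without HIF1a+/- tumour 1 and 0.14 without HIF1a+/- tumour 4. It moved the GTPase median between -0.51 (without HIF1a+/- tumour 4) and -0.1 (without HIF1aKI/+ tumour 1), with -0.12 without HIF1a+/- tumour 5, -0.15 without HIF1aKI/+ tumour 4 and -0.44 without HIF1aKI/+ tumour 3.

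**Figure D1:**
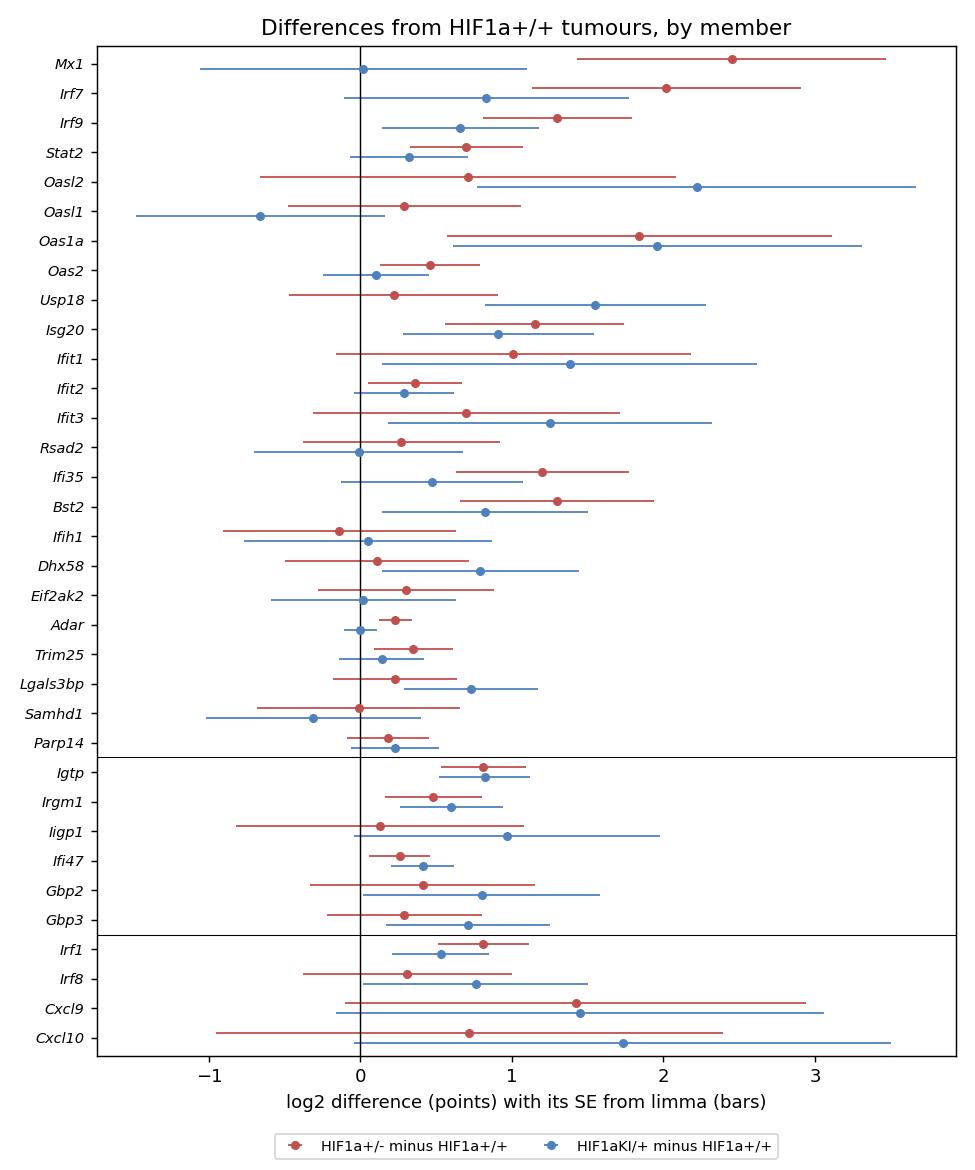
Log2 differences of the 34 members from HIF1a+/+ tumours (points) with the standard error of the fit (bars), for HIF1a+/- tumours in red and HIF1aKI/+ tumours in blue. The horizontal lines separate type I members, GTPases and other gamma-induced members. Most points lie right of 0 in both colours, the bars of Cxcl9, Cxcl10 and Oasl2 are among the widest, and Mx1 stands at 2.45 in red and 0.02 in blue.

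The 5 members described first are transcription factors of the pathway. Irf1, the factor that carries the gamma response onward, had values of 10.61, 11.07, 10.57, 11.21 and 10.78 in HIF1a+/- tumours, 11.08, 9.47, 11.38 and 10.32 in HIF1aKI/+ tumours, and 10.1, 10.31, 10.1, 9.74 and 9.94 in HIF1a+/+ tumours. The lowest HIF1a+/- tumour was above the highest HIF1a+/+ tumour, whereas the HIF1aKI/+ tumours held both the highest and the lowest value of the 14. The log2 difference was 0.81 (SE 0.3) between HIF1a+/- and HIF1a+/+ tumours, with an unadjusted p of 0.0209 and an adjusted p of 0.54 in limma. The exact two-sided permutation p was 0.00794, the smallest that 5 against 5 tumours allow, for a gene singled out here because its groups do not overlap. The lack of overlap alone fixes that value, so it adds nothing to the limma result. It is also unadjusted, and the test was run for all 34 members in all 3 comparisons. Between HIF1aKI/+ and HIF1a+/+ tumours the difference was 0.53 (SE 0.32, adjusted p 0.984 in limma), which was 0.25 without HIF1aKI/+ tumour 4, 0.35 without HIF1aKI/+ tumour 1 and 0.89 without HIF1aKI/+ tumour 3.

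Irf7, the factor that amplifies type I interferon production, had values of 5.53, 6.44, 5.25, 5.59 and 2.34 in HIF1a+/- tumours, 3.76, 3.09, 6.03 and 2.48 in HIF1aKI/+ tumours, and 3.07, 4.97, 1.89, 2.02 and 3.1 in HIF1a+/+ tumours. It was above background in 4 of 5 HIF1a+/- tumours, 1 of 4 HIF1aKI/+ tumours and 1 of 5 HIF1a+/+ tumours, and tumour 5 was the only HIF1a+/- tumour within the range of the HIF1a+/+ tumours. The mean of the HIF1a+/+ tumours, 3.01, is a background level, and the difference of 2.02 (SE 0.89, adjusted p 0.61 in limma) between HIF1a+/- and HIF1a+/+ tumours is measured against it.

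Irf9, the DNA-binding subunit of the type I complex, had values of 9.74, 9.01, 8.76, 8.91 and 7.76 in HIF1a+/- tumours, 8.69, 7.36, 9.33 and 7.39 in HIF1aKI/+ tumours, and 6.88, 8.39, 6.82, 7.37 and 8.21 in HIF1a+/+ tumours. HIF1a+/- tumours 1 to 4 were above every HIF1a+/+ tumour, and HIF1a+/- tumour 5 fell among them. The difference between HIF1a+/- and HIF1a+/+ tumours was 1.3 (SE 0.49, adjusted p 0.54 in limma), and that between HIF1aKI/+ and HIF1a+/+ tumours was 0.66 (SE 0.52, adjusted p 0.984).

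Stat2, the other partner of Irf9, stayed at the edge of background, between 4.42 and 4.46 in the 4 HIF1aKI/+ tumours, between 4.08 and 6.11 in HIF1a+/- tumours and between 3.09 and 4.53 in HIF1a+/+ tumours. Only HIF1a+/- tumours 1 and 5, at 5.04 and 6.11, were clearly above the boundary. Irf8, a factor of myeloid and dendritic cells that is also induced by interferon-gamma, ranged from 7.77 to 9.24 in HIF1a+/- tumours, from 8.19 to 9.9 in HIF1aKI/+ tumours and from 6.4 to 10.45 in HIF1a+/+ tumours. The HIF1a+/+ tumours thus held both its highest and its lowest value, and its differences were 0.31 (SE 0.69) for HIF1a+/- tumours and 0.76 (SE 0.74) for HIF1aKI/+ tumours, each minus HIF1a+/+ tumours, with adjusted p of 0.97 and 0.984 in limma.

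**Figure D2:**
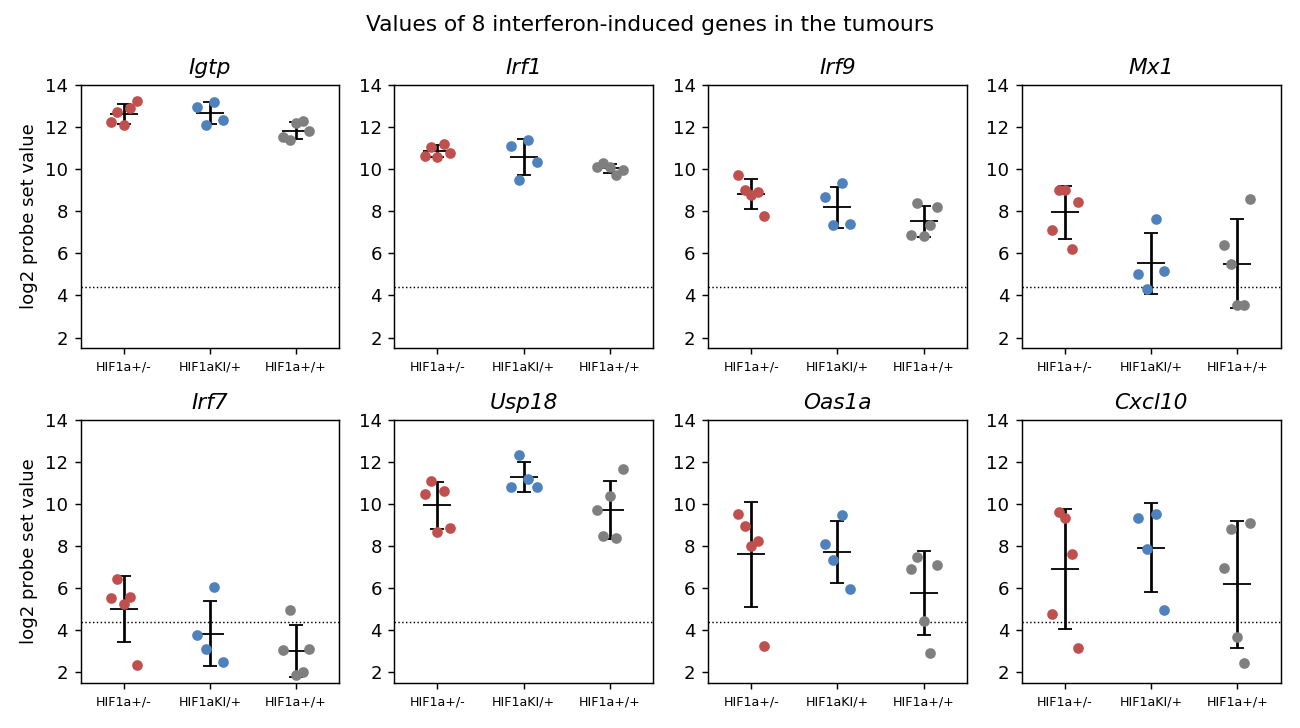
Log2 probe set values of 8 members in HIF1a+/- (red), HIF1aKI/+ (blue) and HIF1a+/+ (grey) tumours, with 1 point per tumour, the mean and the SD, and the low-mode boundary of 4.4 as a dotted line. The HIF1a+/- points of Irf1 lie above all its HIF1a+/+ points and its HIF1aKI/+ points run from 9.47 to 11.38, while Oas1a and Cxcl10 run from background to above 9 within a genotype.

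Among the type I members, Mx1, which encodes a dynamin-like GTPase, had values of 7.11, 9.02, 9.01, 6.2 and 8.43 in HIF1a+/- tumours, 5.01, 4.31, 7.65 and 5.14 in HIF1aKI/+ tumours, and 6.38, 5.51, 3.54, 3.55 and 8.57 in HIF1a+/+ tumours. HIF1a+/- tumours lay between 6.2 and 9.02, HIF1aKI/+ tumours at 5.14 or less but for tumour 4, and HIF1a+/+ tumours from background to 8.57, so that the groups overlapped. The difference was 2.45 (SE 1.02, adjusted p 0.593 in limma) between HIF1a+/- and HIF1a+/+ tumours and 2.43 (SE 1.08, adjusted p 1.0) between HIF1a+/- and HIF1aKI/+ tumours. The means of HIF1aKI/+ and HIF1a+/+ tumours differed by 0.02 (SE 1.08, adjusted p 1.0), and an SE of that size does not show that they were alike.

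Usp18, the protease that strips ISG15 from proteins and damps signalling at the type I receptor, was arranged differently. Its values were 10.47, 11.11, 8.66, 10.59 and 8.85 in HIF1a+/- tumours, 10.81, 12.3, 11.16 and 10.79 in HIF1aKI/+ tumours, and 9.72, 8.46, 10.36, 8.36 and 11.66 in HIF1a+/+ tumours. All 4 HIF1aKI/+ tumours exceeded 4 of the 5 HIF1a+/- tumours and 4 of the 5 HIF1a+/+ tumours. The difference was 1.55 (SE 0.73, adjusted p 0.984 in limma) between HIF1aKI/+ and HIF1a+/+ tumours and -1.33 (SE 0.73, adjusted p 1.0) between HIF1a+/- and HIF1aKI/+ tumours.

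The oligoadenylate synthetase family makes the second messenger that activates RNase L. Oas1a had values of 9.52, 8.97, 8.02, 8.26 and 3.26 in HIF1a+/- tumours, 8.11, 7.35, 9.49 and 5.94 in HIF1aKI/+ tumours, and 6.92, 7.47, 4.45, 2.9 and 7.08 in HIF1a+/+ tumours. It was at background in HIF1a+/- tumour 5 and HIF1a+/+ tumour 4 and at 9.52 in HIF1a+/- tumour 1, and the difference of 1.96 (SE 1.35, adjusted p 0.984 in limma) between HIF1aKI/+ and HIF1a+/+ tumours was 1.25 without HIF1a+/+ tumour 4. Oasl2 was at background in the same 2 tumours, at 1.98 and 2.43, where the other 12 tumours lay between 4.44 and 8.88. Its difference between HIF1aKI/+ and HIF1a+/+ tumours, 2.22 (SE 1.45, adjusted p 0.984), was 1.39 without HIF1a+/+ tumour 4.

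Bst2, or tetherin, which holds budding virions at the cell surface, had values of 9.76, 9.18, 9.88, 9.09 and 10.13 in HIF1a+/- tumours, 9.17, 9.14, 8.96 and 9.24 in HIF1aKI/+ tumours, and 9.98, 9.19, 8.45, 8.34 and 5.57 in HIF1a+/+ tumours. A single low tumour, HIF1a+/+ tumour 5, carried much of its difference between HIF1a+/- and HIF1a+/+ tumours, which was 1.3 (SE 0.64, adjusted p 0.649 in limma) with that tumour and 0.62 without it. Ifi35, which binds the interferon-induced protein Nmi, averaged 5.6 ± 0.95 in HIF1a+/- tumours, 4.87 ± 0.29 in HIF1aKI/+ tumours and 4.4 ± 1.18 in HIF1a+/+ tumours (SD, n = 5, 4 and 5). Lgals3bp, a secreted glycoprotein, averaged 11.12 in HIF1a+/- tumours, 11.62 in HIF1aKI/+ tumours and 10.89 in HIF1a+/+ tumours, and its lowest value, 9.6, was in HIF1a+/- tumour 5. Its difference between HIF1a+/- and HIF1aKI/+ tumours, -0.5, was -0.12 without HIF1a+/- tumour 5, -0.33 without HIF1aKI/+ tumour 4 and -0.77 without HIF1aKI/+ tumour 5.

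The Ifit genes encode RNA-binding proteins that block translation of foreign RNA, and they did not move as 1 unit. Ifit2 stayed between 8.86 and 10.61 in all 14 tumours. Ifit3 ran from 3.41, in both HIF1a+/- tumour 5 and HIF1a+/+ tumour 4, to 8.31 in HIF1a+/- tumour 2. Ifit1 ran from 3.32 in HIF1a+/+ tumour 3 to 10.88 in HIF1a+/+ tumour 1, so its extremes were both in HIF1a+/+ tumours. The antiviral radical enzyme Rsad2 (viperin) lay between 7.2 and 10.61 with group means of 8.96 in HIF1a+/- tumours, 8.68 in HIF1aKI/+ tumours and 8.69 in HIF1a+/+ tumours. The exonuclease Isg20 averaged 9.0 in HIF1a+/- tumours, 8.75 in HIF1aKI/+ tumours and 7.84 in HIF1a+/+ tumours. The RIG-I ubiquitin ligase Trim25 and the ADP-ribosyltransferase Parp14 varied little, between 11.6 and 12.91 and between 8.41 and 9.85. Eif2ak2, the RNA-activated kinase PKR, shows what the choice of probe set can do, since its difference between HIF1aKI/+ and HIF1a+/+ tumours was 0.02 for the probe set used and 0.97 for the other one.

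The 6 gamma-induced GTPases were on in nearly all tumours, and their mean over the 6 genes ran from 8.38 to 10 in HIF1a+/- tumours, from 8.96 to 9.97 in HIF1aKI/+ tumours and from 8.09 to 9.48 in HIF1a+/+ tumours. Igtp, an immunity-related GTPase that regulates the effector GTPases of its family, had values of 12.23, 12.72, 12.1, 12.89 and 13.26 in HIF1a+/- tumours, 12.97, 12.08, 13.21 and 12.35 in HIF1aKI/+ tumours, and 11.51, 11.4, 12.18, 12.27 and 11.8 in HIF1a+/+ tumours. The HIF1a+/+ tumours had the 3 lowest values of the 14, but HIF1a+/+ tumours 3 and 4 lay among the lower tumours of both other genotypes. The differences were 0.81 (SE 0.28, adjusted p 0.525 in limma) between HIF1a+/- and HIF1a+/+ tumours and 0.82 (SE 0.3, adjusted p 0.984) between HIF1aKI/+ and HIF1a+/+ tumours. Those of HIF1a+/- and HIF1aKI/+ tumours differed by -0.01 (SE 0.3, adjusted p 1.0).

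Irgm1, another regulatory member of that family, averaged 7.71 ± 0.68 in HIF1a+/- tumours, 7.83 ± 0.47 in HIF1aKI/+ tumours and 7.23 ± 0.32 in HIF1a+/+ tumours (SD, n = 5, 4 and 5), and its difference between HIF1aKI/+ and HIF1a+/+ tumours, 0.6, was 0.38 without HIF1aKI/+ tumour 4. Ifi47, also of that family, was the steadiest of the 6, with all 14 tumours between 11.05 and 12.27 and means of 11.68 in HIF1a+/- tumours, 11.83 in HIF1aKI/+ tumours and 11.42 in HIF1a+/+ tumours. Iigp1, an effector that disrupts parasite vacuoles, was the least steady, from 4.38 in HIF1a+/+ tumour 4 to 9.13 in HIF1a+/- tumour 3. It was also low in HIF1a+/- tumours 1 and 5, at 5.61 and 5.64. The guanylate-binding proteins Gbp2 and Gbp3 averaged 7.78 and 7.67 in HIF1a+/- tumours, 8.17 and 8.1 in HIF1aKI/+ tumours, and 7.36 and 7.39 in HIF1a+/+ tumours. None of these 5 genes had an unadjusted p under 0.05 in limma in any of the 3 comparisons.

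The chemokines Cxcl9 and Cxcl10 draw T cells through the receptor Cxcr3. Cxcl10 had values of 4.79, 9.62, 9.35, 7.6 and 3.17 in HIF1a+/- tumours, 9.31, 7.86, 9.54 and 4.97 in HIF1aKI/+ tumours, and 6.96, 8.79, 3.67, 2.43 and 9.07 in HIF1a+/+ tumours. Each genotype had tumours near or below 5 and tumours above 8.5, and the SE of a difference was 1.67 or more. Cxcl9 was above background in HIF1a+/- tumours 2 and 3 at 8.18 and 6.51, HIF1aKI/+ tumours 1 and 4 at 6.76 and 6.95, and HIF1a+/+ tumour 2 at 6.88, and at 4.32 or less in the other 9. All 5 of those tumours had a Cxcl10 value of 8.79 or more.

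**Figure D3:**
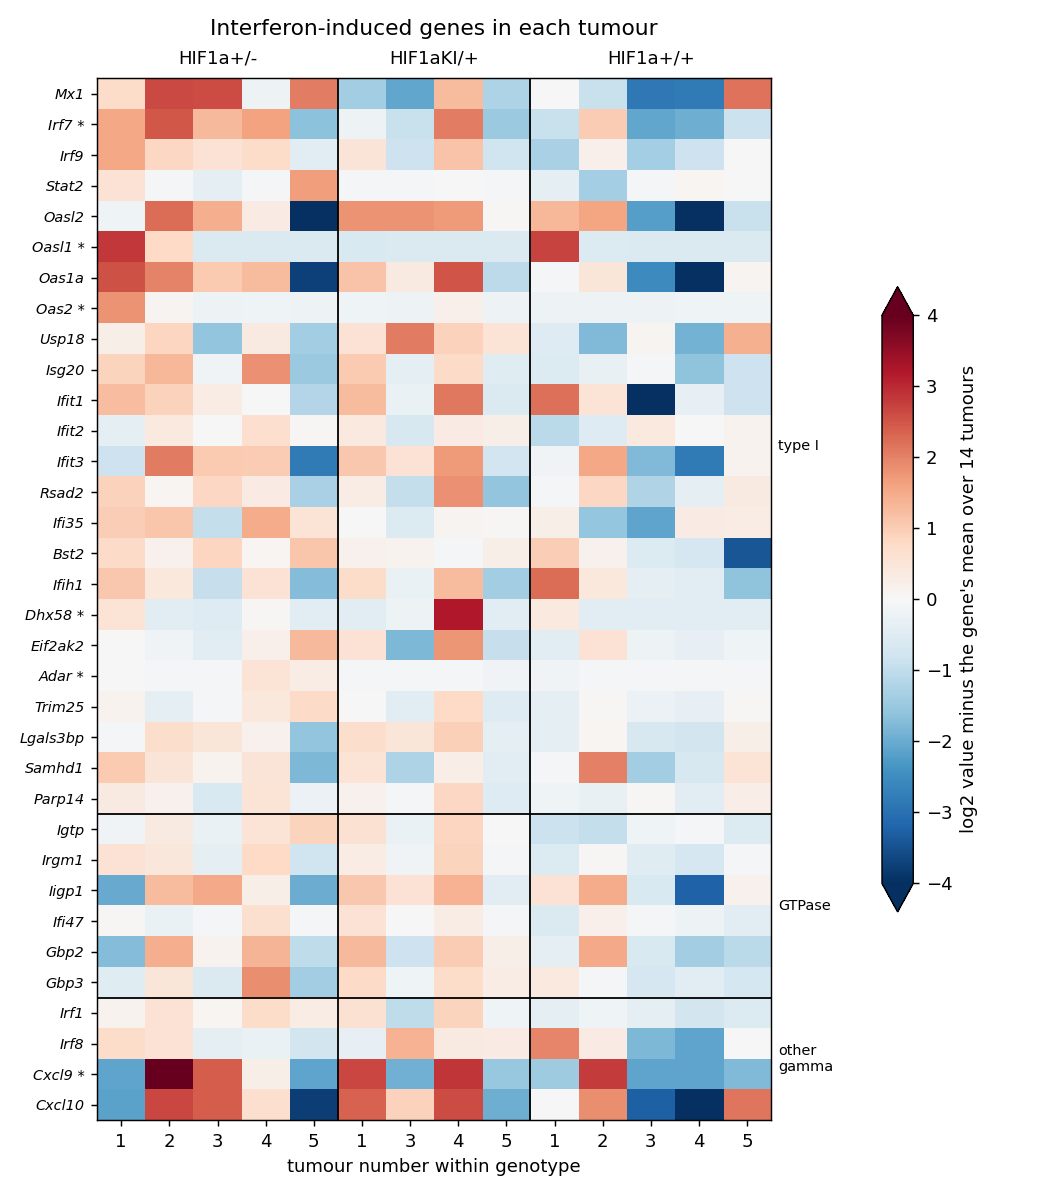
Log2 value of each of the 34 members in each tumour, minus the member's mean over the 14 tumours, with tumours in columns by genotype, red for above and blue for below the mean, and an asterisk beside members whose mean is below the boundary of 4.4. HIF1aKI/+ tumour 4 is mostly red, and HIF1a+/- tumour 5 and HIF1a+/+ tumours 3 and 4 are mostly blue. The colour scale ends at 4 in each direction.

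The tumours of 1 genotype differed from one another more in these genes than in a typical gene. The pooled SD within genotypes had a median of 1.0 over the 28 members above the boundary and 0.47 over the 7341 genes above it, and 24 of the 28 members were above that second value. It was largest for Cxcl10 at 2.72, Oasl2 at 2.24 and Oas1a at 2.08, and smallest for Ifi47 at 0.32. Cxcl10, Oasl2 and Oas1a fell to background in some tumours, with lowest values of 2.43, 1.98 and 2.9, which widens their SD. The genes compared were not matched to the members for level. HIF1aKI/+ tumour 4 had the highest value for 7 of the 28 members and was among the top 3 for 18. HIF1a+/- tumour 5 was lowest for 7 and among the bottom 3 for 14, and HIF1a+/+ tumours 3 and 4 were among the bottom 3 for 14 and 15. HIF1a+/- tumour 5 was not low throughout, since its Igtp (13.26), Bst2 (10.13) and Stat2 (6.11) were the highest of the 14 tumours.

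How the members ran together over the tumours was measured against Irf7 and Irf1 in 65 correlations over 14 tumours, with permutation p adjusted by Benjamini-Hochberg over the 65. No such correlations were computed for genes outside the list. The counts therefore do not show whether members follow Irf7 or Irf1 more than other genes do. By Pearson r, Irf7 was correlated at an adjusted permutation p under 0.05 with 13 of 33 members, all positively, and 10 of these also passed by Spearman rho. Oasl2, Ifit1 and Irf1 did not, with adjusted permutation p of 0.0535, 0.0601 and 0.05 for rho. The closest were Irf9 (Pearson r = 0.88, adjusted permutation p 0.0039, and Spearman rho = 0.89, adjusted p 0.00162) and Oas1a (r = 0.86, adjusted permutation p 0.00195, and rho = 0.94, adjusted p 0.00065). Next came Irgm1 (r = 0.79, rho = 0.85) and Rsad2 (r = 0.79, rho = 0.76), with adjusted permutation p of 0.0172 for each r and of 0.00412 and 0.0197 for the rho values. Without the 2 tumours farthest from the median of Irf7, r was 0.86 for Irf9, 0.83 for Oas1a, 0.73 for Irgm1 and 0.83 for Rsad2. After each genotype was centred on its own mean, r was 0.82, 0.89, 0.83 and 0.87. Stat2, at the edge of background, had the lowest r with Irf7, -0.26 (adjusted permutation p 0.491). Its r was -0.72 after the centring, for which no p was computed. Irf7 itself was at background in 8 of the 14 tumours, where its order is uncertain. Mx1 (r = 0.55, rho = 0.6) and Usp18 (r = 0.13, rho = 0.35) did not pass, with adjusted permutation p of 0.109 and 0.691 for r and 0.0846 and 0.306 for rho.

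By Pearson r, Irf1 was correlated at an adjusted permutation p under 0.05 with 7 of 32 members besides Irf7, and 4 of these also passed by Spearman rho. Trim25, Irgm1 and Cxcl9 did not, with adjusted permutation p of 0.114, 0.0601 and 0.155 for rho. Those that passed by both included Igtp (r = 0.72, rho = 0.73, adjusted permutation p 0.0284 and 0.028), Irf9 (r = 0.71, rho = 0.76, adjusted permutation p 0.0284 and 0.0197) and Eif2ak2 (r = 0.72, rho = 0.71, adjusted permutation p 0.0284 and 0.0359). Without the 2 tumours farthest from the median of Irf1, r was 0.7 for Igtp, 0.65 for Irf9 and 0.44 for Eif2ak2, so the last rests in part on those tumours. Centred within genotypes, r was 0.55 for Igtp, 0.54 for Irf9 and 0.82 for Eif2ak2. Over pairs of members, the median r was 0.52 in the 15 pairs of GTPases, 0.27 in the 171 pairs of type I members above the boundary and 0.33 in the 114 pairs across those classes, values given as descriptions since the pairs share tumours and genes. Pairs of other genes were not computed beside them.

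**Figure D4:**
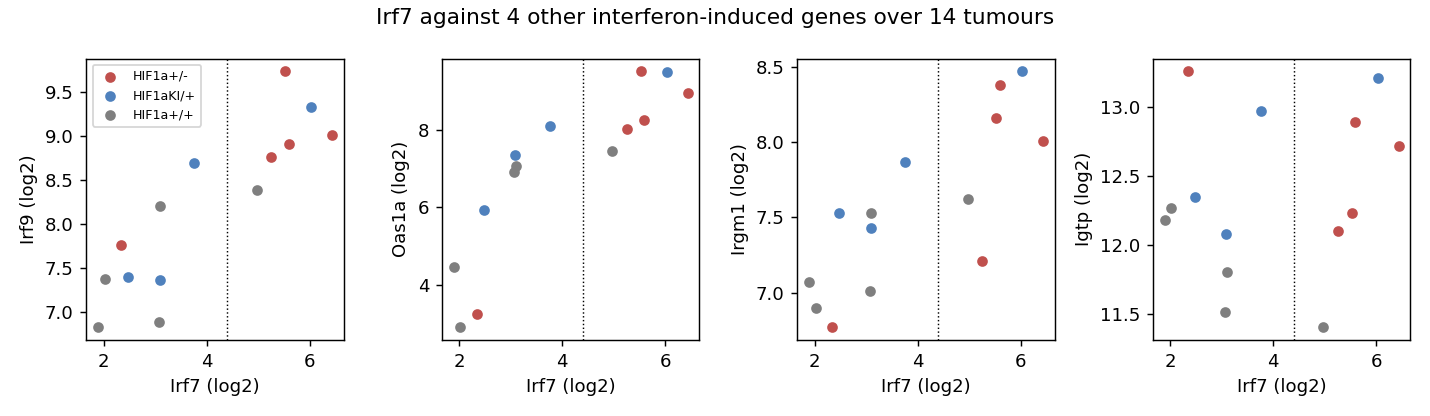
Log2 value of Irf7 (horizontal, boundary of 4.4 dotted) against those of Irf9, Oas1a, Irgm1 and Igtp (vertical), with 1 point per tumour in HIF1a+/- (red), HIF1aKI/+ (blue) and HIF1a+/+ (grey). Irf9, Oas1a and Irgm1 climb with Irf7, with r of 0.88, 0.86 and 0.79, while HIF1a+/- tumour 5 has the highest Igtp value, 13.26, at a background value of Irf7.

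The rest of the pathway was read from lists of 18 ligands, 16 receptors and signalling genes, 20 nucleic acid sensing genes, 50 other interferon-induced genes and 27 other gamma-induced genes. Ifng was the 1 ligand measured by the same rule, and it was at background in every tumour, between 2.07 and 2.09. Of 13 measured receptor and signalling genes, 0 passed the adjusted p in limma in any comparison, and 3 were higher and 1 lower in HIF1a+/- than in HIF1a+/+ tumours at an unadjusted p under 0.05. Of all genes, 4.3% were higher and 3.64% lower by that rule. Ifngr1, the ligand-binding subunit of the gamma receptor, had values of 12.01, 11.43, 11.35, 10.01 and 12.41 in HIF1a+/- tumours, 10.06, 9.38, 9.39 and 10.24 in HIF1aKI/+ tumours, and 8.82, 9.98, 8.52, 10.28 and 10.69 in HIF1a+/+ tumours. HIF1a+/- tumours other than tumour 4 were above all 9 tumours of the other genotypes. The difference was 1.78 (SE 0.51, unadjusted p 0.00431, adjusted p 0.474 in limma) between HIF1a+/- and HIF1a+/+ tumours, 0.11 (SE 0.54, adjusted p 1.0) between HIF1aKI/+ and HIF1a+/+ tumours and 1.67 (SE 0.54, unadjusted p 0.00908, adjusted p 1.0) between HIF1a+/- and HIF1aKI/+ tumours.

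The second subunit Ifngr2 was 1.34 higher (SE 0.57, adjusted p 0.6 in limma) and the kinase Jak1 0.45 higher (SE 0.19, adjusted p 0.592) in HIF1a+/- than in HIF1a+/+ tumours, while Socs3, a feedback inhibitor of cytokine signalling, differed by -1.68 (SE 0.55, adjusted p 0.514). Of 16 measured sensing genes, 4 had a higher mean in HIF1a+/- than in HIF1a+/+ tumours, with a median of -0.13, and 6 had one in HIF1aKI/+ than in HIF1a+/+ tumours, with a median of -0.08. The shares of all genes with a higher mean were 46.2% and 47.7% in these comparisons, which also applies to the lists below. Zbp1, a sensor of Z-form nucleic acid that is itself interferon-induced, differed by 0.99 (SE 0.34, adjusted p 0.525) between HIF1a+/- and HIF1a+/+ tumours, and the adaptor Myd88 by -0.73 (SE 0.32, adjusted p 0.618). Between HIF1aKI/+ and HIF1a+/+ tumours Zbp1 differed by 0.59 (SE 0.36) and Myd88 by -0.88 (SE 0.34), each with an adjusted p of 0.984 in limma. Of 37 other interferon-induced genes, 27 had a higher mean in HIF1a+/- than in HIF1a+/+ tumours, with a median of 0.5, and 26 in HIF1aKI/+ than in HIF1a+/+ tumours, with a median of 0.29. Of 16 other gamma-induced genes, 14 had a higher mean in each of those comparisons, with medians of 0.22 and 0.16, and 0 genes of these lists passed the adjusted p in limma. At an unadjusted p under 0.05 between HIF1a+/- and HIF1a+/+ tumours, 1 sensing gene was higher and 1 lower, and 3 other interferon-induced genes and 1 other gamma-induced gene were higher. Of all genes, 4.3% were higher and 3.64% lower there. Between HIF1aKI/+ and HIF1a+/+ tumours, 1 sensing gene, Myd88, was lower and 1 other gamma-induced gene was higher by the same rule. Of all genes, 2.72% were higher and 1.63% lower there.

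Irgm2, the third regulatory GTPase of the Igtp and Irgm1 family, led the other gamma-induced genes. It had values of 7.01, 7.42, 6.29, 7.85 and 8.12 in HIF1a+/- tumours, 7.79, 5.84, 8.18 and 5.53 in HIF1aKI/+ tumours, and 5.87, 6.42, 4.8, 5.12 and 4.95 in HIF1a+/+ tumours. HIF1a+/- tumour 3 lay just below the highest HIF1a+/+ tumour, and the other HIF1a+/- tumours lay above all of them. The difference was 1.91 (SE 0.57, unadjusted p 0.00571, adjusted p 0.474 in limma) between HIF1a+/- and HIF1a+/+ tumours and 1.41 (SE 0.6, unadjusted p 0.0376, adjusted p 0.984) between HIF1aKI/+ and HIF1a+/+ tumours.

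The labels call the tissue thymic lymphoma. All 11 measured T lineage genes had a mean over the tumours above the boundary, and the mean of that list lay between 11.66 and 12.67 in the 14 tumours, with Cd5 at background, 4.37, in HIF1a+/- tumour 3. In some lists of markers of other cells most genes, like most members, had a higher mean in HIF1a+/- and in HIF1aKI/+ than in HIF1a+/+ tumours, where 46.2% and 47.7% of all genes did. Whether these lists follow the members from tumour to tumour was not tested. In bulk tissue fewer cells of a type cannot be told apart from less RNA per cell. The 10 thymic epithelial markers averaged 5.62 to 7.48 in HIF1a+/- tumours, 6.53 to 7.7 in HIF1aKI/+ tumours and 4.05 to 7.33 in HIF1a+/+ tumours, and 8 and 10 of them had a higher mean in HIF1a+/- and in HIF1aKI/+ than in HIF1a+/+ tumours. HIF1a+/+ tumours 3 and 4, among the lowest in interferon-induced genes, were also the 2 lowest in this list at 4.05 and 4.27, but HIF1a+/- tumour 5 was at 6.5. HIF1a+/+ tumour 5 was nearly as low in this list, at 4.38, with a mean over the members of 7.21, the median of the HIF1a+/+ tumours. HIF1aKI/+ tumour 4 had the highest mean over the members, 8.5, and the lowest HIF1aKI/+ value in this list, 6.53. The 10 dendritic cell and MHC class II markers, several of which are gamma-induced themselves, averaged 9.0 to 9.38 in HIF1a+/- tumours, 8.84 to 9.97 in HIF1aKI/+ tumours and 7.37 to 9.69 in HIF1a+/+ tumours. Of the dendritic cell markers, Flt3 and Batf3 were at background in every tumour, with highest values of 2.14 and 3.54, while Itgax and Zbtb46 averaged 6.8 and 4.95 over the tumours, with highest values of 9.23 and 6.58.

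Fibroblast markers ran the other way, with all 8 lower on average in both altered genotypes and list means of 7.43 to 8.85 in HIF1a+/- tumours, 8.21 to 9.16 in HIF1aKI/+ tumours and 9.04 to 10.2 in HIF1a+/+ tumours. All 5 adipocyte markers were likewise lower on average, with list means of 4.61 to 5.74 in HIF1a+/- tumours, 4.77 to 6.26 in HIF1aKI/+ tumours and 4.64 to 9.34 in HIF1a+/+ tumours. The 15 macrophage markers averaged 7.54 to 8.48 in HIF1a+/- tumours, 7.67 to 8.62 in HIF1aKI/+ tumours and 8.21 to 9.76 in HIF1a+/+ tumours, with 12 of them lower on average in HIF1a+/- than in HIF1a+/+ tumours. They include Stab1, a scavenger receptor and 1 of the 2 genes that passed the test, with 7.73 ± 0.23 in HIF1a+/- tumours and 9.01 ± 0.33 in HIF1a+/+ tumours (SD, n = 5 each, adjusted p 0.0499 in limma). That call was lost in 6 of 8 other settings, with adjusted p of 0.0373 to 0.225 over the 8 limma fits, and in all 14 fits that left out 1 tumour, with adjusted p of 0.0601 to 0.228. The 7 B cell markers, 3 of them with a mean at background, were highest on average in HIF1a+/- tumour 2 at 8.51 and HIF1aKI/+ tumour 4 at 7.9, both of them tumours with high Cxcl9 and Cxcl10. The other tumours with Cxcl9 above background were lower, with HIF1aKI/+ tumour 1 and HIF1a+/+ tumour 2 at 6.99 and HIF1a+/- tumour 3 at 6.15. HIF1a+/+ tumour 3, with both chemokines at background, was at 6.77. The plasmacytoid dendritic cell list, which shares Bst2 and Irf8 with the members, averaged 7.24 to 9.06 in HIF1a+/- tumours, 8.41 to 9.03 in HIF1aKI/+ tumours and 7.04 to 8.58 in HIF1a+/+ tumours. Of 9 natural killer and cytotoxic markers, 6 had a mean at background, while Gzma, Prf1 and Tbx21 averaged 13.06, 6.66 and 5.67 over the tumours. The part of any of these cells in the differences of the interferon-induced genes was not tested.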

How the data were processed

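The 14 arrays were deposited as 1 table of 18264 probe sets. Its values are log2 summaries, made with GCRMA and Partek by the authors per the submitters' processing notes, without versions; GCRMA corrects for background, normalizes and summarises probes. Scanner files were not used here, and for the probe annotation a build is not given in the sources consulted. Array medians ran from 7.91 to 8.03 and correlations between arrays from 0.942 to 0.976. The number of arrays limits the precision.

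From these values, probe sets naming 1 gene were kept (16602; 603 name several genes and 1059 none), with the highest-mean probe set per gene. Differences were fitted with limma 3.58.1 in R 4.3.3 (lmFit, default eBayes), 1 mean per genotype over all arrays, without a filter. The p values are two-sided with Benjamini-Hochberg adjustment over 10254 genes, at a threshold of 0.05. The low-mode boundary is the lowest density between the 2 modes. Exact permutation tests used 252 or 126 assignments, and correlations used 100000 permutations (scipy 1.17.1). The fit was checked on simulated data.

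The members, lists, tests and named genes were chosen with earlier results of these data known. Named were, per comparison, the 8 members of smallest unadjusted p, the 5 transcription factors, the 6 GTPases and up to 3 genes per pathway list; other members appear by mean and range. Promoters are shown for the 3 members of smallest unadjusted p with a core within 150 bases before the start; Adar and Ifi35 have theirs after it. Replicates are separate mice per the labels, which name no batch. Same-numbered tumours did not vary together (residual correlations between -0.109 and 0.141). Alternatives were other normalizations, moderation, array weights, averaging all probe sets per gene, a level filter, a fit of the compared genotypes, a replicate block and leaving out each tumour; the number of members above 0 was added after seeing the data.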

Additional observations from a re-analysis of the deposited data

Results flagged for a closer look

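In 6 of 84 groups of member values (28 members in 3 genotypes), 1 tumour stood apart from the others by Dixon's gap test at 95%, and chance alone flags about 1 group in 20. Oas1a was 3.26 in HIF1a+/- tumour 5, where the other HIF1a+/- tumours had 8.02 to 9.52. Oasl2 was 6.7 in HIF1aKI/+ tumour 5, against 8.35 to 8.46 in the other HIF1aKI/+ tumours. HIF1aKI/+ tumour 3 was low for Ifit2, at 9.28 against 10.16 to 10.33, and for Ifi35, at 4.43 against 4.97 to 5.07. Eif2ak2 was 7.7 in HIF1a+/+ tumour 2, against 6.69 to 6.95 in the other HIF1a+/+ tumours. Stat2 was 4.46 in HIF1aKI/+ tumour 4, against 4.42 in the other 3, a gap at the edge of background.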

How the results depend on the processing

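Every one of the 525 alternative values of the 24 differences of named members kept its direction and stayed above the threshold, with adjusted p between 0.338 and 1.0 in limma. These members were chosen for the smallest unadjusted p in the same data, which favours a kept direction, so that part is no independent check. No member, named or not, was called under any setting run. Over all genes, the 2 called between HIF1a+/- and HIF1a+/+ tumours became 0 with arrays centred on their medians, with the level filter, with only the compared genotypes and with quantile normalization, and 1 with trend and robust moderation. Leaving out 1 tumour gave 0 to 1 genes there, 0 to 2 between HIF1aKI/+ and HIF1a+/+ tumours and 0 to 1 between HIF1a+/- and HIF1aKI/+ tumours.

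The 5 members higher in HIF1a+/- than in HIF1a+/+ tumours at an unadjusted p under 0.05 became 2 without HIF1a+/+ tumour 3, 3 without HIF1a+/- tumour 4 and 7 at most, without HIF1a+/- tumour 5. For HIF1aKI/+ against HIF1a+/+ tumours, 1 member became 2 with array weights, 2 with the level filter, 3 with only the compared genotypes and 0 to 3 with 1 tumour left out. For HIF1a+/- against HIF1aKI/+ tumours, 1 became 2 with array weights and 0 to 2 with 1 tumour left out. With the replicate number as a block, 0 genes were called between HIF1a+/- and HIF1a+/+ tumours and 0 members were higher at an unadjusted p under 0.05 than in HIF1aKI/+ tumours; the block changed no other call. The numbers of members above 0, a count added after seeing the data, ran from 27 to 34, from 24 to 32 and from 12 to 24 in the 3 comparisons. Array weights raised the GTPase median between HIF1a+/- and HIF1a+/+ tumours to 0.61, and the level filter raised the type I median to 0.7. The filter keeps genes at or above the boundary in at least 4 arrays, so it drops Oasl1, Oas2, Dhx58 and Adar and keeps Irf7 and Cxcl9. The higher type I median follows from leaving those members out. The cause of the other shifts was not tested.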
